A study of Mus musculus with 10 samples.

Results

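Transcripts of 10 salivary secretory protein genes, Bpifa2, Amy1, Prb1, Pip, Car6, Lpo, Cst10, Dcpp1, Aqp5 and Scgb2b27, were followed through RNA libraries of sorted mouse melanoma cells. All rows of the transcript table with one of these gene names were taken and their estimated counts were summed by name, which gave 10 genes of 34162. The genes had been picked because they were abundant in some of the metastatic libraries, so their levels there are given as a description and are not evidence for the choice. All mice were of the C57BL/6:SV129 strain. Cells had been sorted by fluorescence into GFP-positive cells, labelled c-Myc-high, and GFP-negative cells, labelled c-Myc-low. The groups were metastatic c-Myc-high (3 libraries) and metastatic c-Myc-low (3) from melanoma in lymph nodes, then primary c-Myc-high (2) and primary c-Myc-low (2) from melanoma in the skin. The labels do not give the position of the lymph nodes, the age of the mice, the tumour model or the construct that carries GFP, nor whether replicates came from separate animals, so all p-values describe only how far these libraries spread.

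Saliva is made by acinar cells, which secrete water, salts and large amounts of protein, and is modified as it passes through ducts. In the mouse the parotid gland is known for amylase and parotid secretory protein, the sublingual gland for mucins and the demilune proteins, and the submandibular gland for kallikreins and growth factors made in its granular ducts. Several of the 10 genes are not restricted to saliva: Pip and Lpo are also known from tears and milk, and Aqp5 from lung, sweat gland and lacrimal gland.

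Bpifa2, Amy1, Prb1, Pip and Dcpp1 are shown by sequence first, because the first 4 had the highest counts of the 10 genes in metastatic c-Myc-high replicate 1 and Dcpp1 had its own distribution. Each line gives the 80 bases from 70 before to 10 after the RefSeq transcript start on GRCm38.p6, read 5′ to 3′ on the gene's strand. Capitals mark the first TATAA on that strand within the stretch. Amy1 has a further RefSeq start, whose stretch (chr3:113577741-113577820) is not printed and holds no TATAA.
Bpifa2, chr2:154008206-154008285, plus strand: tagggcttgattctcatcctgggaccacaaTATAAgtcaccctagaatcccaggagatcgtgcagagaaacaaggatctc
Amy1, chr3:113574753-113574832, minus strand: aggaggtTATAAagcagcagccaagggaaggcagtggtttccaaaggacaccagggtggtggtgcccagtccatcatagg
Prb1, chr6:132210512-132210591, minus strand: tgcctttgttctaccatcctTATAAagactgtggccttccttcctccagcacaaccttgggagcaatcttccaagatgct
Pip, chr6:41847479-41847558, plus strand: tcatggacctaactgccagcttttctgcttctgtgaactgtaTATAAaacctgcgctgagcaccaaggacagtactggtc
Dcpp1, chr17:23880806-23880885, plus strand: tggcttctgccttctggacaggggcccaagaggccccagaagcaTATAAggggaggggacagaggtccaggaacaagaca
Dcpp2, chr17:23898652-23898731, plus strand: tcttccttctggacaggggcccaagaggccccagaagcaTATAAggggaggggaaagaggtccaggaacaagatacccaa
Dcpp3, chr17:23917388-23917467, plus strand: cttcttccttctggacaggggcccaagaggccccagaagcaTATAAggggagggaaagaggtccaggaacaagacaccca

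Dcpp2 and Dcpp3 are printed beside Dcpp1 because the stretches of these neighbours are close copies. Over windows of 300 bases, 250 before to 50 after the start, Dcpp1 was 93.8% identical to Dcpp2 and 95.1% identical to Dcpp3, and its longest coding transcript in GENCODE was 83.7% identical to each of theirs. Motifs were counted on both strands of these windows, of which the 10 genes have 11. TATAAA was found in 4 genes (Amy1, Pip, Prb1 and Scgb2b27) and in 13.6% of 32851 windows of all genes. AGGAAG was found in 3 (Dcpp1, Prb1 and Scgb2b27) and in 35.4% of all windows, CAGCTG in Car6 alone and in 16.3%, and TGACGTCA in none and in 1.79%. TATAA on the gene's own strand, lying within the stretch from 40 to 15 bases before the start, was found in Bpifa2, Dcpp1 and Pip. It was found there in 3.52% of all windows, and this motif position was chosen after the windows had been seen. These matches describe letters, and TATAA lies within TATAAA where an A follows.

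In GENCODE's annotation of GRCm38, the same assembly as the mm10 build named in the submitters' processing notes, all 10 are protein-coding genes. Bpifa2 (chr2:154008265-154016079) and Cst10 (chr2:149405057-149410293) lie on the plus strand of chromosome 2, and Pip (chr6:41847535-41852065) and Prb1 (chr6:132206795-132210521) on the plus and minus strands of chromosome 6. Amy1 lies at chr3:113555710-113606699, Car6 at chr4:150187015-150201332, Scgb2b27 at chr7:34011921-34013942 and Lpo at chr11:87806428-87828289, all on the minus strand. Aqp5 lies at chr15:99590782-99594829 and Dcpp1 at chr17:23880876-23882853, both on the plus strand. The genes therefore occupy 8 chromosomes.

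The libraries held between 1603012 and 6844328 estimated counts, and levels are given as CPM, the count scaled to a library total of 1e6. A count of 3 in a library stood for 0.438 to 1.87 CPM, and values at or under that floor are not read as expression. Melanocyte markers, 9 genes such as Dct, Tyrp1 and Pmel, summed to between 3222 and 26395 CPM in the 6 metastatic libraries and between 390.3 and 2237 CPM in the 4 primary ones. Keratinocyte markers summed to 18.2 to 41.0 CPM in metastatic and 15278 to 39481 CPM in primary libraries. In such bulk libraries, more cells of a type and more RNA per cell cannot be told apart.

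The 10 genes were concentrated in 2 libraries. Together they took 150911, 52.5 and 33441 CPM in metastatic c-Myc-high replicates 1, 2 and 3, against 144, 669.8 and 72.4 CPM in metastatic c-Myc-low replicates 1, 2 and 3. Primary c-Myc-high libraries 1 and 2 gave sums of 52.8 and 278 CPM, and primary c-Myc-low libraries gave 15.6 and 44.1 CPM. Expressed as a share of the library, this was 15.1% of all counts in metastatic c-Myc-high replicate 1 and 3.34% in replicate 3, and between 0.00156% and 0.0670% in the other 8. Metastatic c-Myc-high replicate 2 ranked 8 of 10 by this sum, below all 3 metastatic c-Myc-low libraries.

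The mean sum was 61468 ± 79238 CPM for metastatic c-Myc-high (SD, n = 3) and 296 ± 326 CPM for metastatic c-Myc-low libraries (SD, n = 3). Among primary libraries it was 165 ± 159 CPM for c-Myc-high (SD, n = 2) and 29.9 ± 20.2 CPM for c-Myc-low cells (SD, n = 2). In this order, the first pair of neighbours overlapped in their ranges, as did the second pair. The c-Myc classes of the primary tumours did not overlap, and neither did c-Myc-low libraries of the different sites. The mean of metastatic c-Myc-high libraries was 16747 CPM without replicate 1, 75482 without replicate 3 and 52.5 without both. All 10 genes reached 100 CPM in metastatic c-Myc-high replicate 1 and 7 did so in replicate 3, whereas 2 did in metastatic c-Myc-low replicate 2, 1 in primary c-Myc-high replicate 2 and none in the other 6 libraries.

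**Figure D1:**
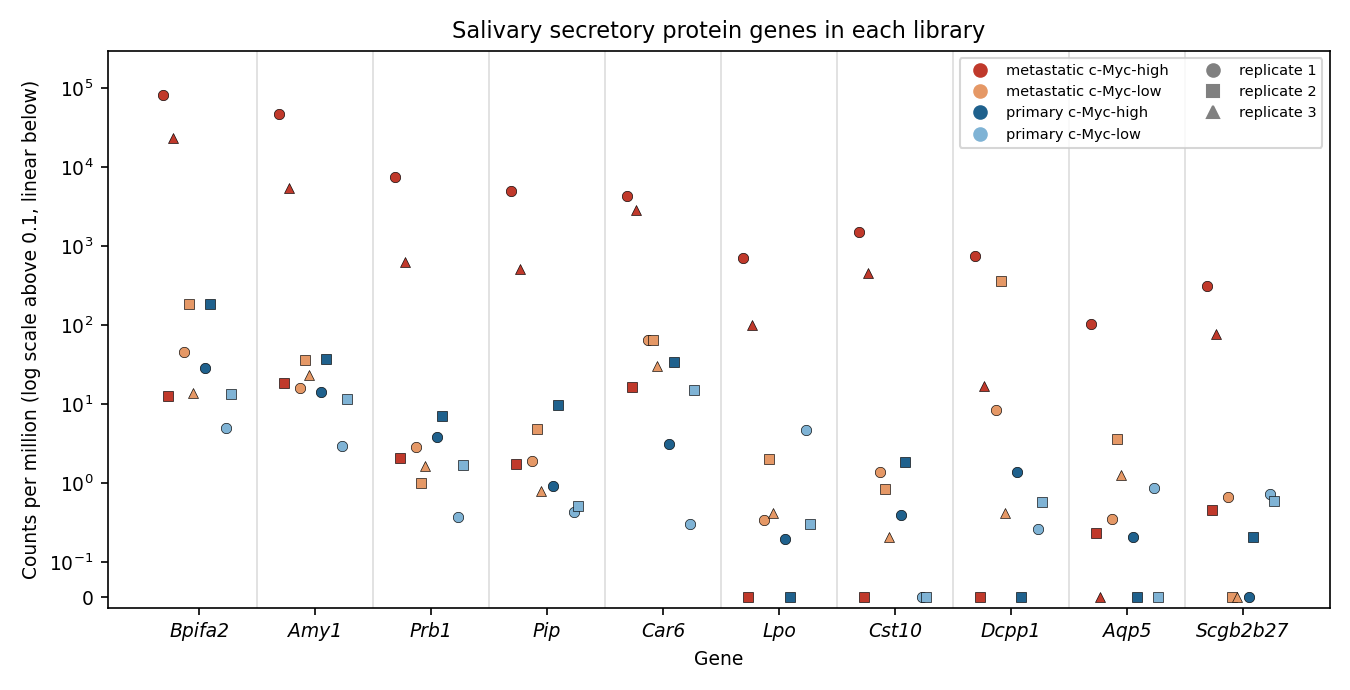
Level of each of the 10 genes in each of the 10 libraries, in CPM on a log scale that is linear at the lowest values. Metastatic lies left of primary and c-Myc-high left of c-Myc-low. Metastatic c-Myc-high replicate 1 has the highest point for all 10 genes, replicate 3 comes next for 8 of them, and metastatic c-Myc-low replicate 2 comes next for Dcpp1 and Aqp5.

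Among the digestive and carrier proteins, Bpifa2 and Amy1 had the highest counts in metastatic c-Myc-high replicates 1 and 3. Bpifa2 encodes parotid secretory protein, a member of the lipid-binding BPI fold family. It had 82883, 12.8 and 23308 CPM in metastatic c-Myc-high replicates 1, 2 and 3, against 46.2, 188 and 14.0 CPM in metastatic c-Myc-low replicates 1, 2 and 3. It had 28.5 and 187 CPM in primary c-Myc-high and 4.97 and 13.3 CPM in primary c-Myc-low libraries. Bpifa2 was thus the most abundant of all genes by count in metastatic c-Myc-high replicate 1 (rank 1) and had rank 7 in replicate 3, while metastatic c-Myc-high replicate 2 lay below every metastatic c-Myc-low value.

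Amy1 encodes the salivary form of amylase, which cleaves starch. Its levels were 47735, 18.7 and 5408 CPM in metastatic c-Myc-high replicates 1, 2 and 3, against 16.1, 36.2 and 23.4 CPM in metastatic c-Myc-low libraries. Primary c-Myc-high libraries had 14.3 and 37.0 CPM of Amy1 and primary c-Myc-low libraries 2.93 and 11.8 CPM. The 2 libraries rich in Bpifa2 were also those rich in Amy1, with ranks 4 and 17 among all genes. Bpifa2 and Amy1 made up 86.6% of the summed count of the 10 genes in metastatic c-Myc-high replicate 1 and 85.9% in replicate 3.

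Car6, the secreted carbonic anhydrase of saliva, had 4322, 16.4 and 2911 CPM in metastatic c-Myc-high replicates 1, 2 and 3, against 66.0, 64.3 and 30.3 CPM in metastatic c-Myc-low libraries. It had 3.15 and 34.3 CPM in primary c-Myc-high and 0.304 and 15.3 CPM in primary c-Myc-low libraries. Car6 was the gene most alike in the 2 rich libraries, 1.48-fold higher in replicate 1 than in replicate 3. The same ratio was 3.56 for Bpifa2, 8.83 for Amy1 and 12.0 for Prb1.

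Prb1, which encodes a proline-rich protein of the kind that binds dietary tannins, had 7558, 2.10 and 631 CPM in metastatic c-Myc-high replicates 1, 2 and 3, against 2.89, 0.995 and 1.65 CPM in metastatic c-Myc-low libraries. The primary values were 3.81 and 7.07 CPM in c-Myc-high and 0.377 and 1.69 CPM in c-Myc-low libraries. Pip, prolactin-induced protein, a small secreted protein of several exocrine glands, had 5010.0, 1.76 and 524 CPM in metastatic c-Myc-high libraries, against 1.92, 4.84 and 0.802 CPM in metastatic c-Myc-low libraries. Outside the rich pair, both genes stayed below 10 CPM in all 8 libraries, and the metastatic ranges of the c-Myc classes overlapped.

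The antimicrobial and protease-inhibiting members were lower but had the same 2 leading libraries. Lpo encodes lactoperoxidase, an enzyme that makes antibacterial oxidants. It had 709, 0 and 101.3 CPM in metastatic c-Myc-high replicates 1, 2 and 3, against 0.343, 2.03 and 0.422 CPM in metastatic c-Myc-low libraries. Its highest primary value was 4.77 CPM, in c-Myc-low replicate 1, where it made up 30.5% of that library's small count of the 10 genes. Cst10, of the cystatin family of cysteine protease inhibitors, had 1523, 0 and 463 CPM in metastatic c-Myc-high libraries, against 1.39, 0.845 and 0.211 CPM in metastatic c-Myc-low libraries. Cst10 had no count in either primary c-Myc-low library. Scgb2b27, a secretoglobin of the androgen-binding protein family, had 317, 0.462 and 77.7 CPM in metastatic c-Myc-high libraries and at most 0.731 CPM in each of the other 7.

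Dcpp1 and Aqp5 departed from this order. Dcpp1, demilune cell and parotid protein, had 750.0, 0 and 17.2 CPM in metastatic c-Myc-high replicates 1, 2 and 3, against 8.52, 369 and 0.422 CPM in metastatic c-Myc-low replicates 1, 2 and 3. Its level in metastatic c-Myc-low replicate 2 was therefore above that in 2 of the 3 metastatic c-Myc-high libraries. Primary libraries held 1.38 and 0 CPM of Dcpp1 in c-Myc-high and 0.263 and 0.576 CPM in c-Myc-low cells. Aqp5, the apical water channel of acinar cells, had 103, 0.231 and 0 CPM in metastatic c-Myc-high libraries, against 0.353, 3.59 and 1.27 CPM in metastatic c-Myc-low libraries, and at most 0.877 CPM in a primary library. Taken against the floor of 3 counts in metastatic c-Myc-high replicate 3, Aqp5 was at least 91.1-fold higher in replicate 1, whereas Dcpp1 was 43.6-fold higher there.

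Dcpp2 and Dcpp3, named here after their values were seen, moved with Dcpp1. The 3 genes together had 1542 CPM in metastatic c-Myc-high replicate 1 and 70.2 in replicate 3, against 769 CPM in metastatic c-Myc-low replicate 2. Dcpp1 held 48.6% of this sum in the first and 47.9% in the last of these libraries. The annotated transcript of Dcpp1 shares 46.5% of its 50-base windows with other genes, mostly Dcpp2 and Dcpp3, so the split among the 3 is uncertain and their sum is the firmer value. In metastatic c-Myc-low replicate 2, Dcpp1 alone made up 55.0% of the summed count of the 10 genes.

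**Figure D2:**
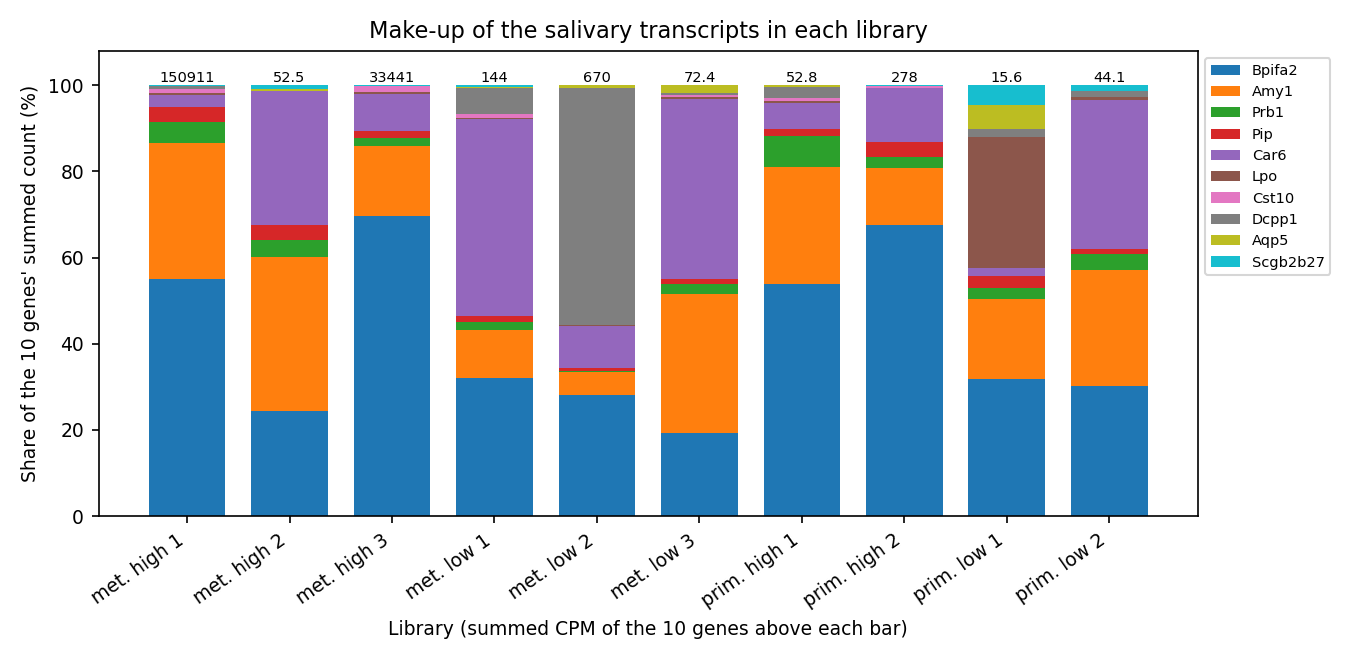
Share of each gene in the summed estimated count of the 10 genes, in percent, for each library, with metastatic left of primary and c-Myc-high left of c-Myc-low. Bpifa2 and Amy1 fill 86.6% and 85.9% of metastatic c-Myc-high replicates 1 and 3, and Dcpp1 fills 55.0% of metastatic c-Myc-low replicate 2.

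Compared per transcript length, in the deposited RPKM (reads per kilobase and per 1e6 reads) summed over a gene's transcripts, the order in metastatic c-Myc-high replicate 1 was Bpifa2 at 16621, Amy1 at 7748, Pip at 1499, Prb1 at 806, Car6 at 674 and Cst10 at 369 RPKM. Dcpp1 at 208, Scgb2b27 at 93.4, Lpo at 41.5 and Aqp5 at 11.4 RPKM followed. In metastatic c-Myc-high replicate 3 Bpifa2 also led, at 3490 RPKM, followed by Amy1 at 322, Car6 at 213, Pip at 100.4, Cst10 at 84.0 and Prb1 at 43.2 RPKM. Car6 thus stood ahead of Pip and Prb1 in the second library, and Cst10 ahead of Prb1. The count of Bpifa2 over that of Amy1 was 1.74 in metastatic c-Myc-high replicate 1 and 4.31 in replicate 3.

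The low Amy1 values outside the rich pair rested in part on a transcript that runs into another gene. The transcript ENSMUST00000174147 (chr3:113564987-113606699) overlaps Rnpc3, which encodes a protein of the minor spliceosome, and Rnpc3 shares 1079 of the 3393 50-base windows of Amy1's transcripts. It carried 71.3% of Amy1's count in metastatic c-Myc-high replicate 2, against 91.9% in metastatic c-Myc-low replicate 3 and 16.1% in replicate 1. It carried 52.9% in primary c-Myc-low replicate 2 and nothing in the other 6 libraries, the rich pair included. Without this transcript, Amy1 stood at 5.39 CPM in metastatic c-Myc-high replicate 2 and at 1.88 CPM in metastatic c-Myc-low replicate 3. The shared 50-base windows are identical on the same strand in the transcripts of both genes, so reads within them cannot be told apart.

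Amy1 also shares 51 and 34 windows with the pancreatic amylase genes Amy2b and Amy2a2, and Prb1 shares 28.2% of its windows with other genes, among them Prpmp5, so their counts may be split. Bpifa2, Pip, Car6, Lpo, Cst10 and Aqp5 share no 50-base window with another gene, and Scgb2b27 shares 1.91%. The part of shared windows in the levels was not tested.

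**Figure D3:**
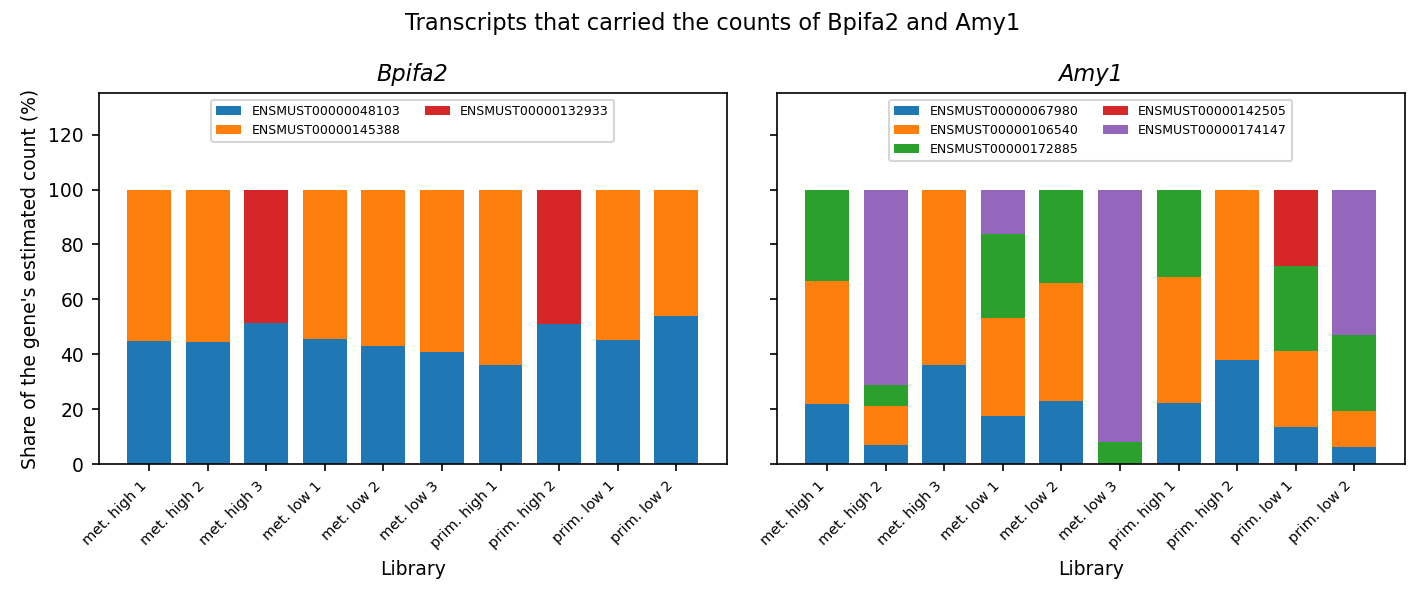
Share of each annotated transcript in the summed estimated count of Bpifa2 and Amy1, in percent, for each library, with metastatic left of primary. The transcript ENSMUST00000132933 of Bpifa2 carries 48.7% in metastatic c-Myc-high replicate 3 and 48.8% in primary c-Myc-high replicate 2 and nothing in the other 8 libraries.

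The transcripts behind the sums differed between the rich libraries. For Bpifa2, the retained-intron transcript ENSMUST00000132933 (chr2:154014596-154016076) carried 48.7% of the count in metastatic c-Myc-high replicate 3 and 48.8% in primary c-Myc-high replicate 2, and nothing in the other 8 libraries. The protein-coding transcript ENSMUST00000145388 (chr2:154008276-154014444) was at 0 in these 2 libraries and had counts in the other 8. The retained-intron transcript ENSMUST00000172885 of Amy1 was likewise at 0 in the pair, and carried 33.1% of Amy1's count in metastatic c-Myc-high replicate 1. The shares of Amy1's remaining transcripts were 36.2% and 63.8% in metastatic c-Myc-high replicate 3 and 37.9% and 62.1% in primary c-Myc-high replicate 2, and those of Car6 were 59.5% and 40.5% in the metastatic and 59.4% and 40.6% in the primary library.

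Metastatic c-Myc-high replicate 3 and primary c-Myc-high replicate 2 come from different tumour sites and are the shallowest libraries, with 2641865 and 1603012 counts. The split of transcripts they share was not particular to salivary genes. Over the whole table, 1366 transcripts had a count in each of the other 8 libraries and none in this pair, the highest number of all 45 pairs of libraries, the next being 820 for primary c-Myc-high replicates 1 and 2. Transcripts counted in this pair alone numbered 126, against 172 for metastatic c-Myc-high replicate 1 with primary c-Myc-high replicate 1. Primary c-Myc-high replicate 2 also had the highest salivary sum of the primary libraries, at 278 CPM. Bpifa2 made up 67.4% of it, close to its 69.7% in metastatic c-Myc-high replicate 3. Such closeness was not particular to this pair. Bpifa2 made up 54.9% in metastatic c-Myc-high replicate 1 and 53.9% in primary c-Myc-high replicate 1. The part of depth in the shared transcript split and in these shares was not tested.

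Against the primary libraries, which are described with no test, the metastatic libraries overlapped for every gene. Of the 6 metastatic libraries, 4 were above the highest primary library for Car6 and Dcpp1, 3 for Bpifa2 and Aqp5, and 2 for Amy1, Prb1, Pip, Lpo, Cst10 and Scgb2b27. For the last 6 of these genes, the 2 were metastatic c-Myc-high replicates 1 and 3.

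The c-Myc classes were then compared over all genes by edgeR's robust quasi-likelihood test, with Benjamini-Hochberg adjustment over 16805 genes and a threshold of 0.05. All 10 genes passed the filter on low counts. In metastases none of the 10 was called, nor was any other gene (0% of genes tested), although 512 genes were higher and 295 lower at an unadjusted p under 0.05. The log2 fold changes of c-Myc-high over c-Myc-low cells lay between 1.69 for Dcpp1 and 11.10 for Prb1, with a median of 9.51 against 0 over all genes tested. Their standard errors lay between 1.87 and 2.47, and 9 of the 10 had an unadjusted p under 0.05, Dcpp1 being the exception. Because the genes were picked from these libraries, this count is a description.

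Prb1 had the lowest adjusted p of the 10 (log2 fold change 11.10, SE 2.32, adjusted p = 0.617, edgeR). For Bpifa2 the log2 fold change was 9.42 with an SE of 2.47 and an adjusted p of 0.863, and for Amy1 it was 10.06 with an SE of 2.27 and an adjusted p of 0.655. Metastatic c-Myc-high replicate 2 lay below at least 1 metastatic c-Myc-low library for all 10 genes, so the groups overlapped for each. Without replicate 2, edgeR called 33 genes, all higher, of which 7 were Bpifa2, Amy1, Prb1, Pip, Lpo, Cst10 and Scgb2b27 (adjusted p between 0.0123 and 0.0461). Leaving out replicate 2 removes the metastatic c-Myc-high library where these 7 genes were lowest. Since the genes had been picked for their abundance in metastatic libraries, these calls are a description. Without replicates 1 and 3, a choice made after seeing the data that removes the libraries where the genes are high, replicate 2 alone was left in the group and was assumed to vary like the other groups. The log2 fold change was then -2.54 for Bpifa2 and -0.32 for Amy1, and none of the 8 genes still tested was called. DESeq2 with all 10 libraries called 86 of the 16805 genes that passed the filter, 71 higher and 15 lower. Among them were 8 of the 10 (all but Dcpp1 and Aqp5, with adjusted p from 9.68e-11 for Prb1 to 0.00428 for Car6). These calls, too, come from the libraries that the genes were picked from.

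In primary tumours the same comparison also called none of the 10 genes and no other gene by edgeR (0% of genes tested), with 721 genes higher and 1232 lower at an unadjusted p under 0.05. The log2 fold changes lay between -4.59 for Scgb2b27 and 5.72 for Cst10, 7 of 10 were positive, and the adjusted p-values lay between 0.486 and 0.914. Both ends of this range rest on the prior count of the fit, because Cst10 had no count in primary c-Myc-low libraries and Scgb2b27 no whole count in primary c-Myc-high ones. The other 8 genes lay between -3.47 for Lpo and 4.23 for Bpifa2. The median was 2.14, against -0.12 over all genes tested, and none of the 10 had an unadjusted p under 0.05. The primary counts were low: between 4 and 6 of the 10 genes reached 3 counts in each library. DESeq2 called 398 genes here, 197 higher and 201 lower, of which Cst10 was the only one of the 10, a gene with 0.394 and 1.87 CPM in primary c-Myc-high and no count in either primary c-Myc-low library, at or under the floor of 3 counts.

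The difference between the c-Myc changes in metastases and in primary tumours passed for none of the 10 by edgeR and for no other gene (0% of genes tested), while 797 genes were higher and 353 lower at an unadjusted p under 0.05. The estimates were positive for all 10, with a median of 6.08 against 0.21 over all genes tested, and 4 genes (Amy1, Prb1, Lpo and Scgb2b27) had an unadjusted p under 0.05. The standard error exceeded the estimate for Cst10 (4.55, SE 55.2) and Dcpp1 (0.21, SE 5.92). Because the genes had been picked for abundance in metastatic libraries, these signs and counts are a description. The lowest adjusted p of the 10 by edgeR was 0.724. DESeq2 called 84 genes, 55 higher and 29 lower, including Lpo and Scgb2b27. Both calls rest on few primary counts: Scgb2b27 had 0 and 0.333 counts in primary c-Myc-high, against 5 and 2 in primary c-Myc-low libraries, and Lpo had 1 and 0, against 32.6 and 1.005.

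The summed level of other genes of salivary secretion was also highest in metastatic c-Myc-high replicates 1 and 3. Of 42 further secretory genes on a list made with earlier results known, 39 were in the table, 8 of them at 0 everywhere. Their sum was 66708, 779.6 and 16120 CPM in metastatic c-Myc-high replicates 1, 2 and 3, against 158, 575 and 473 CPM in metastatic c-Myc-low libraries. The sum was 27.3 and 221 CPM in primary c-Myc-high and 21.7 and 41.2 CPM in primary c-Myc-low libraries. Of the 31 genes with a count, 14 had their highest level in metastatic c-Myc-high replicate 1 and 5 in replicate 3. The share of all genes that were highest in these libraries is not given here, so these counts are a description.

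Smr3a, which encodes a submaxillary gland androgen-regulated protein, was the most abundant of the list, at 35737, 5.26 and 12609 CPM in metastatic c-Myc-high replicates 1, 2 and 3, against 10.8, 18.0 and 4.46 CPM in metastatic c-Myc-low libraries. Dnase1, a secreted nuclease, had 11456 CPM in metastatic c-Myc-high replicate 1 and 718 in replicate 3, and at most 19.6 CPM elsewhere. The proline-rich protein genes Prh1, Prp2 and Prpmp5 had 8709.6, 4985 and 3951 CPM in replicate 1 and 1514, 702 and 175 CPM in replicate 3. Lyz1, a lysozyme also made by myeloid cells, had another order, with 589.8 CPM in metastatic c-Myc-high replicate 2 and 36.5 and 16.8 CPM in replicates 1 and 3, against 88.4, 92.4 and 340.2 CPM in metastatic c-Myc-low libraries. Ltf, named here after its values were seen, had 0.226, 150 and 1.20 CPM in metastatic c-Myc-high replicates 1, 2 and 3. It had 6.83, 13.6 and 104 CPM in metastatic c-Myc-low libraries. Together Lyz1 and Ltf held most of the list's sum in metastatic c-Myc-high replicate 2 and metastatic c-Myc-low replicate 3. Of the list, 16 genes were tested in metastases and 0 were called by edgeR. At an unadjusted p under 0.05, 9 were higher, and the median log2 fold change of the 16 was 6.89.

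The glandular kallikreins and duct growth factors were high in metastatic c-Myc-high replicate 3 as in replicate 1. The 17 genes in the table summed to 8912, 198 and 6297 CPM in metastatic c-Myc-high replicates 1, 2 and 3, against 4.58, 4.39 and 1.54 CPM in metastatic c-Myc-low libraries. Klk1, tissue kallikrein, took 4305, 105 and 4148 CPM of this in the metastatic c-Myc-high libraries. Unlike the 10 secretory genes, the kallikrein sum of metastatic c-Myc-high replicate 2 was above all metastatic c-Myc-low libraries, although the difference between the gene groups was not tested. Of 16 genes tested, 0 were called by edgeR and 15 were higher at an unadjusted p under 0.05, with a median log2 fold change of 10.23.

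The summed level of genes of fluid transport and acinar regulation was spread over all groups. Of the 21 genes, however, 11 had their highest level in metastatic c-Myc-high replicate 1 and 1 in replicate 3. These counts, too, are a description without the share of all genes. The list includes Sox10, also a melanocyte marker. Sox10 had 243, 179 and 146 CPM in metastatic c-Myc-high replicates 1, 2 and 3, against 627, 458 and 360 CPM in metastatic c-Myc-low libraries. The 21 genes summed to 2531, 573 and 1678 CPM in metastatic c-Myc-high replicates 1, 2 and 3, against 1760.5, 1266 and 752 CPM in metastatic c-Myc-low libraries, and to between 600.2 and 1255 CPM in the primary ones. Among them Atp1b1, a subunit of the sodium pump, had 900.3, 35.5 and 223 CPM in metastatic c-Myc-high libraries, against 44.7, 34.2 and 17.7 CPM in metastatic c-Myc-low libraries. Bhlha15 and Spdef, regulators of secretory cells named here after their values were seen, had 148 and 38.1 CPM in metastatic c-Myc-high replicate 1, but 7.22 and 0 CPM in replicate 3. Of 16 genes tested, 0 were called by edgeR, 6 were higher at an unadjusted p under 0.05, and the median log2 fold change was 2.34.

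**Figure D4:**
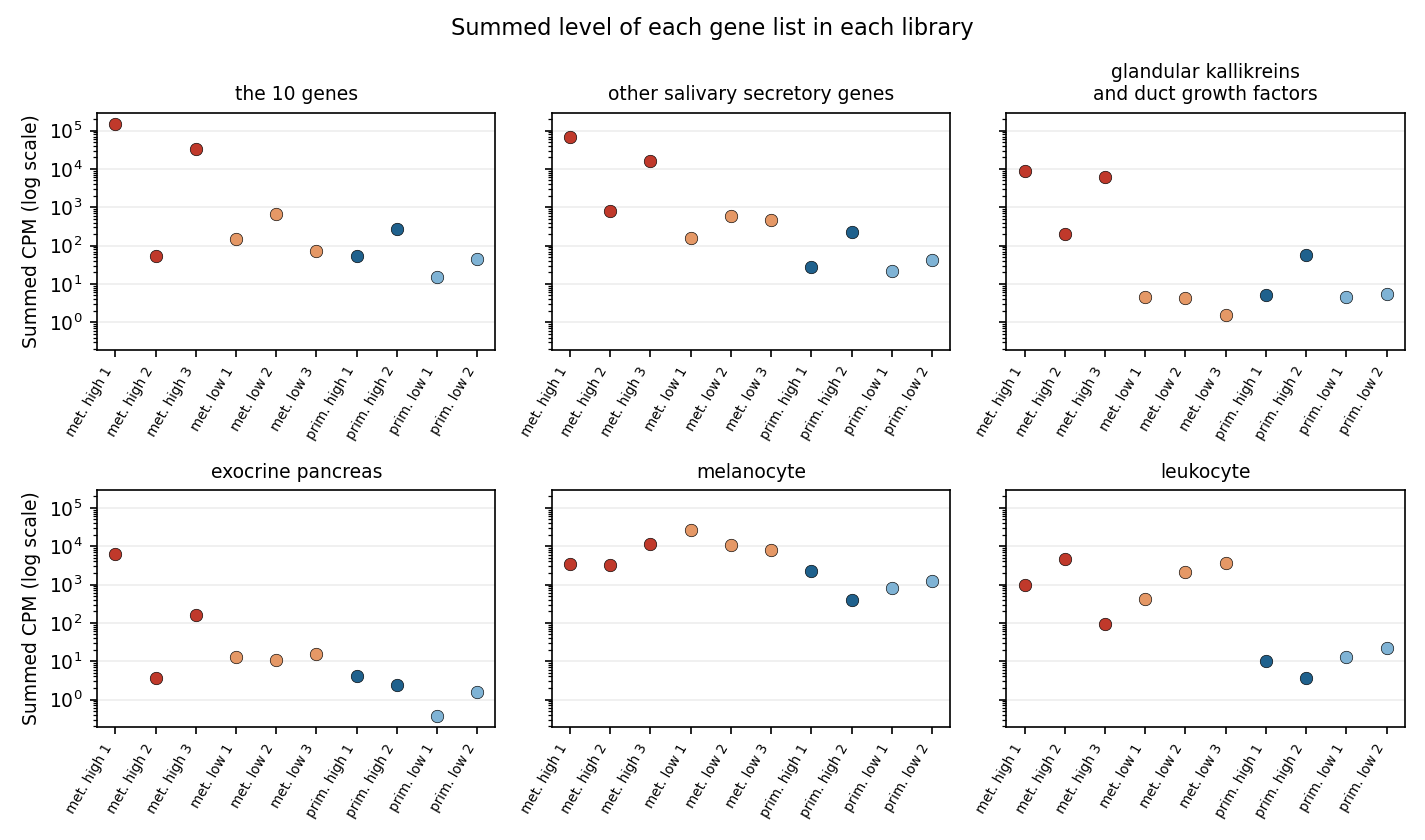
Summed CPM of the 10 genes and of the other salivary, kallikrein, exocrine pancreas, melanocyte and leukocyte lists in each library, on a log scale. Metastatic lies left of primary and c-Myc-high left of c-Myc-low. The 10 secretory genes, the other salivary genes and the kallikreins peak in metastatic c-Myc-high replicates 1 and 3.

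Markers of other secretory tissues were set beside these values, since amylase and several of the 10 genes are shared between glands. Pancreatic amylase genes summed to 6077 CPM in metastatic c-Myc-high replicate 1 and 163 in replicate 3, where Amy2b, which shares windows with Amy1, had 5854 and 21.9 CPM. The other 14 pancreatic enzymes on the list summed to 0.458 and 0.811 CPM in these libraries, nearly all of it from the elastase gene Cela1 at 0.452 and 0.808 CPM. Of the 14, 11 and 12 were at 0, among them Cpa1, Prss2 and Pnlip, which are named here after their values were seen. Of the airway list, Cyp2f2 had 851 and 283 CPM in metastatic c-Myc-high replicates 1 and 3, whereas the other 7 genes, surfactant proteins included, summed to at most 0.0150 CPM in these 2 libraries. Of the 10 lacrimal genes listed, 5 were in the table, and they summed to 10.9 CPM in metastatic c-Myc-high replicate 1, from Mup5 at 8.08 and Mup4 at 2.78 CPM, and to no more than 0.00926 CPM in any other library.

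Markers of simple epithelium were 9 genes such as Epcam, Cdh1 and Krt18. They summed to 626, 35.1 and 606 CPM in metastatic c-Myc-high replicates 1, 2 and 3, against 396, 255 and 20.9 CPM in metastatic c-Myc-low libraries. In primary libraries they summed to between 562 and 2390 CPM. Of 8 genes tested in metastases, 0 were called by edgeR and 7 had a positive log2 fold change, with a median of 2.55 over the 8. At an unadjusted p under 0.05, 2 were higher. Krt18, a keratin of simple epithelia, had 107, 0 and 58.7 CPM in the metastatic c-Myc-high libraries, against 7.92, 14.0 and 0 CPM in the metastatic c-Myc-low ones. Krt19 and Cdh1 had other orders. Krt19, whose log2 fold change was negative, had 8.90, 0.0549 and 0.379 CPM in metastatic c-Myc-high, against 26.97, 42.5 and 0.878 CPM in metastatic c-Myc-low libraries. Cdh1, E-cadherin, had 148, 7.59 and 449.6 CPM, against 344, 146 and 15.3 CPM. Leukocyte markers ran the other way among metastatic c-Myc-high libraries, with 962, 4771 and 95.3 CPM, against 419, 2106 and 3582 CPM in metastatic c-Myc-low libraries. Melanocyte markers summed to 3497, 3222 and 11561 CPM in metastatic c-Myc-high replicates 1, 2 and 3, against 26395, 11042.5 and 7754 CPM in metastatic c-Myc-low libraries. The part of the simple epithelial, leukocyte and melanocyte content in the levels of the 10 genes was not tested.

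Over the 10 libraries, the log2 level of each gene followed the summed level of the other 9 to different degrees. Pearson's r was 0.978 for Bpifa2 and Pip, 0.971 for Amy1, 0.967 for Cst10, 0.943 for Prb1, 0.937 for Car6, 0.916 for Scgb2b27 and 0.882 for Lpo, but 0.728 for Dcpp1 and 0.651 for Aqp5. These values rest mainly on the 2 rich libraries and on a shared total count, and are given as a description. Among 7729 other genes with at least 50 CPM in at least 1 library, predicted genes left out, those most like the sum of the 10 included Tfcp2l1 (r = 0.976), Cyp2f2 (0.976), Smr3a (0.971), Six4 (0.965), Crisp1 (0.963), Prp2 (0.951), Klhdc7a (0.949), Scgb1b27 (0.947) and Amy2a2 (0.947). Tfcp2l1, a transcription factor of ductal epithelia, had 1101, 3.52 and 384 CPM in metastatic c-Myc-high replicates 1, 2 and 3, against 2.82, 9.11 and 0 CPM in metastatic c-Myc-low libraries.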

How the data were processed

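RNA of 10 libraries from sorted melanoma cells was amplified before library preparation, per the labels' protocols. The authors deposited 1 table with estimated counts and RPKM for each of 92214 transcripts. Bowtie2, limma and mm10 appear in the submitters' processing notes. How reads were assigned to transcripts is not given in the sources used here. Deposited estimated counts were summed by gene name and divided by the library total to give CPM, or rounded for tests. The deposited RPKM, scaled by the authors to transcript length and depth, were summed by gene name for levels compared between genes and for limma.

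Tests used edgeR 4.0.16 in R 4.3.3 (TMM scaling, default expression filter, robust quasi-likelihood, 4 groups with 1 shared spread, no covariate, two-sided). The common biological coefficient of variation was 0.8758. DESeq2 1.42.0 and limma 3.58.1 were alternatives, limma on log2 of RPKM plus a pseudocount of 1 or 0.1. Scripts were tested on simulated data. Replicates of a group differed beyond counting noise (chi-square per degree of freedom 49.2 to 249.9), so none is a copy. Floors of 3 counts cover counting error only, and no molecular identifiers are given in the labels. The genes, lists and tests were chosen with earlier results of these data known. Beyond the 10 genes, and except where a name is said to have been chosen after its values were seen or is a gene called under an alternative, those named are up to 6 per list with the highest mean CPM in metastatic libraries, and the 10 most like the summed level, of which 1 is not reported here. Printed sequences are RefSeq's, and all 10 genes matched. Shared windows were counted in the GENCODE M21 transcripts.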

Additional observations from a re-analysis of the deposited data

How the results depend on the processing

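Beside the values above, the alternatives changed counts of called genes as follows, the 10 salivary genes not being among those called unless named. Without a filter on low counts, edgeR called 2 genes in primary tumours (Gm20417 and Slc10a3, both lower) and 1 for the difference between sites (Gm20417). With limma on log2(RPKM + 1), 4 genes were called in primary tumours (Pyy, Sprr4, Gm17099 and n-R5s159, all lower), and on log2(RPKM + 0.1), 2 in metastases (Klk1 and Klk1b5, both higher) and 7 in primary tumours (1 higher, 6 lower). DESeq2 called 86, 398 and 84 genes, and 8, 1 and 2 of the 10, in metastases, primary tumours and their difference. Leaving out 1 library at a time gave 0 to 33 genes and 0 to 7 of the 10 in metastases. Both upper values came without metastatic c-Myc-high replicate 2, the library of its group with the lowest summed level of the 10. Dcpp1 turned to -0.12 (log2) with limma on log2(RPKM + 0.1) and lay between -3.07 and 6.48 when 1 library was left out, the lowest without metastatic c-Myc-high replicate 1. Aqp5 turned to -0.67 with the replicate number as a block. Without metastatic c-Myc-high replicates 1 and 3, an alternative chosen after seeing the data, log2 fold changes were -2.54 for Bpifa2, -0.32 for Amy1, -0.31 for Pip, -1.57 for Car6, -5.01 for Lpo, -11.99 for Dcpp1 and -2.64 for Aqp5. Only replicate 2 was then left in that group, with 0 counts of Lpo and Dcpp1 and 1 of Aqp5. The values of these 3 genes therefore rest on the prior count, and Cst10 and Scgb2b27 were not tested. Prb1 was tested too, but its value is not given here. Its level in replicate 2 was 2.10 CPM, within the 0.995 to 2.89 CPM of metastatic c-Myc-low libraries. Of 178 results for single genes under an alternative, 153 kept direction and side of the threshold, 10 reversed and 15 came to pass it, while no call could be lost because none was made. The causes were not tested. In metastases, same-numbered libraries did not stand out as pairs: their deviations from group means correlated at 0.0824, -0.187 and -0.287. Libraries of different number ranged from -0.467 (c-Myc-high 2 with c-Myc-low 1) to 0.532 (c-Myc-high 2 with c-Myc-low 3). In primary tumours the value was 0.0756, but 2 replicates per group allow only this value or its negative, so it cannot decide on pairing. With the replicate block, 0 genes were called in each comparison, as without it. Leaving out 1 library, the mean summed level lay between 16747 (without replicate 1) and 92176 CPM (without replicate 2) in metastatic c-Myc-high and between 108.4 (without replicate 2) and 407 CPM (without replicate 3) in metastatic c-Myc-low libraries. The metastatic c-Myc-high mean was 30226 CPM with the most abundant transcript per gene and 76034 CPM with TMM library sizes. The number of libraries and the low counts of most of the 10 genes outside the rich pair limit the precision.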

Other observations

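Genes of other secretory proteins had their own distributions in the metastatic libraries. Glycam1, a mucin-like protein known from milk and from the high endothelial venules of lymph nodes, had 32.2, 216 and 183 CPM in metastatic c-Myc-high replicates 1, 2 and 3, against 19.3, 157 and 289 CPM in metastatic c-Myc-low libraries, and at most 2.23 CPM in any primary library. Csn3, kappa-casein, had 24.2, 0 and 0 CPM in metastatic c-Myc-high replicates 1, 2 and 3, against 9.92, 41.5 and 0.194 CPM in metastatic c-Myc-low libraries, and 21.5 CPM in primary c-Myc-low replicate 2. Csn3 and Dcpp1 were thus both high in metastatic c-Myc-low replicate 2. Pigr, the receptor that carries antibodies into secretions, named here after its values were seen, had 31.4, 3.004 and 213.5 CPM in metastatic c-Myc-high libraries, against 1.16, 6.24 and 4.72 CPM in metastatic c-Myc-low libraries, so metastatic c-Myc-high replicate 3 and not replicate 1 was its highest library.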
